A study of Mus musculus with 12 samples.

Results

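The genes of the glutathione, thioredoxin and NRF2 antioxidant systems were examined by RNA sequencing of mouse embryonic fibroblasts that differ in genotype and in oxygen supply. They are 36 named genes, taken by symbol and matched to Ensembl identifiers among 48709 in the deposited count tables. The match uses no measured value, but the list was chosen with earlier results of these data known. Of the 36, 35 had enough reads to be tested, as had 14408 genes in all. Gpx7, which encodes a peroxidase of the endoplasmic reticulum, had 0 to 8 counts per sample and was not tested. All 12 samples were C57BL/6 embryonic fibroblasts grown in DMEM with 10% fetal bovine serum at 37 °C and 5% CO2. There were 4 groups of 3 samples, WT and TAZKo cells, each in normoxia and under hypoxia for 24 hours in a workstation. The submitters describe the TAZKo cells as without tafazzin, a mitochondrial enzyme that exchanges the acyl chains of cardiolipin, and the WT cells as isogenic to them. The labels do not give the oxygen level, the allele, the number of cell lines or clones, or whether the 3 samples of a group were separate cultures, so the p-values measure the spread between these samples, which may be technical. The comparisons set TAZKo against WT and hypoxia against normoxia, alone and together, in the transcripts of these genes.

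Glutathione is a tripeptide made from glutamate, cysteine and glycine. Glutathione peroxidases use it to reduce peroxides, transferases attach it to reactive compounds, and glutathione reductase restores its reduced form with electrons from NADPH. Thioredoxins and peroxiredoxins form a parallel chain in which thioredoxin reductase passes electrons from NADPH to thioredoxin, which in turn reduces the peroxiredoxins that break down hydrogen peroxide. The transcription factor NRF2, encoded by Nfe2l2, drives many of these genes by binding antioxidant response elements, and KEAP1 holds it in check by marking it for degradation, a control that acts on the protein and not on its transcript. Mitochondria, the main site of oxygen use, have their own set of these enzymes.

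Total counts ran from 21039451 to 31204510 per sample, and 3 counts were worth 0.0961 to 0.143 CPM (counts divided by the scaled total of their library, with the same multiple for all). The Taz transcript, which encodes tafazzin, had values of 38.0, 33.3 and 32.7 CPM in normoxia and 25.5, 26.4 and 23.5 in hypoxia in the WT libraries. TAZKo libraries had Taz at 45.8, 39.8 and 40.95 CPM in normoxia and 33.6, 32.8 and 35.1 in hypoxia. It was thus higher, not lower, in the libraries labelled TAZKo, by a log2 difference of 0.29 (adjusted p = 0.0139) in normoxia and 0.43 (adjusted p = 0.00112) in hypoxia. Counts summed over a gene do not show which exons are covered, so the transcript level goes against the label without showing whether the protein is absent, and every genotype direction below is one between libraries labelled TAZKo and WT. Of 8 fibroblast markers, 7 exceeded 1 CPM in every group, with summed levels of 10007 to 13050 CPM. Most of the sum was Fn1, Col1a1 and Vim. Thy1 was nearly absent, with group means of 0.116 to 0.215 CPM, and Col1a2 was low, with means of 2.12 to 5.33 CPM. Single markers varied more than the sum, with means of 2835 CPM in WT and 1153 in TAZKo normoxia for Col1a1, 49.6 and 104 for Pdgfrb, and 1280 in WT normoxia and 2948 in WT hypoxia for Vim. The summed CPM of 4 endothelial markers was 18.03 to 21.01 in WT normoxia against 5.64 to 7.45 in TAZKo normoxia, and 14.5 to 20.5 in WT hypoxia against 3.84 to 5.05 in TAZKo hypoxia, with Cdh5 at 0 in WT normoxia. Tek made up most of these sums, with means of 15.96 CPM in WT and 4.91 in TAZKo normoxia, and Kdr went the same way. Pecam1 went the other way in normoxia, with means of 0.227 CPM in WT and 0.577 in TAZKo. Muscle markers summed to 3.73 to 4.95 CPM in WT normoxia and 9.06 to 10.1 in TAZKo normoxia, and to 2.85 to 4.44 and 5.57 to 6.46 CPM in hypoxia, with Myod1 at 0 throughout. Nearly all of the muscle sum was Des, with means of 4.18 CPM in WT and 9.73 in TAZKo normoxia. Of 4 leukocyte markers, Csf1r and Cd68 were higher in hypoxia, while Adgre1 was at 0 in every sample and Ptprc had at most 1 count. The 4 summed to 4.49 to 5.57 CPM in normoxia and 11.7 to 13.8 in hypoxia in WT. In TAZKo the sums were 4.42 to 5.30 and 7.99 to 9.91 CPM. The 4 epithelial markers summed to 97.9 to 152 CPM, nearly all of it Krt18, with group means of 99.8 to 132 CPM. The part of these signals in the differences below was not tested, and in bulk RNA fewer cells of a type and less RNA per cell cannot be told apart. On the third principal component, which held 6.15% of the variance, sample 1 lay above samples 2 and 3 in WT normoxia (35.7 against -12.8 and -13.4), WT hypoxia (10.5 against -12.2 and -10.1) and TAZKo normoxia (5.77 against -10.3 and -10.9), but not in TAZKo hypoxia (8.11 against 8.45 and 1.32). Results that rest on 1 sample are given without it. Leaving a sample out also estimates the scaling factors and the spread again, so a sample outside a comparison can change its calls.

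Per length, the antioxidant transcripts spanned a wide range. On the scale of CPM per kilobase of exon (RPKM), averaged over the 4 groups, Txn1, the cytosolic thioredoxin, was highest at 319. The peroxiredoxin Prdx1 followed at 127, then Gpx1, the main cytosolic glutathione peroxidase, at 107, the transferase Gsta4 at 93.0, Prdx2 at 84.9 and the cytosolic superoxide dismutase Sod1 at 71.9. The enzymes that make glutathione and its precursor were lower, with Gclm at 19.6, Gclc at 16.98, Cth at 15.2, Gss at 6.00 and Cbs at 0.336. At the bottom lay Gpx3, the plasma glutathione peroxidase, at 0.204, and Gpx7 at 0.0551.

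Several of these genes share sequence or position with others, and the treatment of such reads in the deposited counts is not given in the sources used here. Of the 50-base words in the longest transcript of Nnt, 96.3% also occur in a further annotated gene of the same name, and 61.7% of those of Gpx4 occur in its pseudogene copies. The corresponding shares were 23.1% for Gstm1, 10.9% for Prdx1, 9.0% for Prdx2 and 7.6% for G6pdx. Exons of genes on the opposite strand cover 19.1% of the exon bases of Prdx5, 15.4% of Gss, 13.6% of G6pdx, 11.5% of Prdx2 and 10.9% of Keap1, and the library kit does not mark strand. Values of these genes are uncertain to that extent.

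In normoxia 17 of the 35 tested genes differed between the libraries labelled TAZKo and WT at an adjusted p under 0.05 (edgeR quasi-likelihood test, Benjamini-Hochberg over all 14408 genes), where 30.4% of all tested genes did. Among these, 9 were higher in TAZKo-labelled libraries (Cth, Gss, Gpx4, Gpx8, Gstm1, Txnrd1, Cat, Nfe2l2 and Nqo1; background 15.6%) and 8 lower (Gclm, Gsr, Nnt, Mgst1, Prdx2, Prdx5, Prdx6 and Sod1; background 14.9%). In hypoxia, 12 of 35 differed (background 32.8%), 6 higher (Cth, Gss, Gpx4, Gsto1, Txn2 and Nqo1; 15.8%) and 6 lower (Gsr, Nnt, Mgst1, Prdx1, Prdx5 and Prdx6; 16.9%). Without WT normoxia sample 1, which is no part of this comparison but of the shared estimate of spread, the count in hypoxia was 19 (9 higher and 10 lower), while the share over all genes went from 32.8% to 41.9%. The median log2 difference over the 35 genes was 0.0014 in normoxia and 0.0048 in hypoxia, against 0.0099 and -0.0078 over all genes, so higher and lower values nearly balanced. Higher under both conditions were 4 genes (Cth, Gss, Gpx4 and Nqo1; background 9.81%) and lower under both were 5 (Gsr, Nnt, Mgst1, Prdx5 and Prdx6; background 9.72%). Of the genes that passed, only Cth differed at least 2-fold, in both conditions, where 5.96% and 5.82% of all genes did.

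Hypoxia changed more of them. In the libraries labelled WT, 26 of 35 differed between hypoxia and normoxia (background 51%), 10 higher (26%) and 16 lower (25%). Among TAZKo-labelled samples, 22 of 35 differed (background 43.8%), 6 higher (22.2%) and 16 lower (21.6%). Scaled by library size alone, which shifts the median over all genes, by -0.106 (WT) and -0.094 (TAZKo), the split was 7 higher and 19 lower in WT and 4 higher and 21 lower in TAZKo. The median log2 change over the 35 genes was -0.077 in WT and -0.17 in TAZKo. Higher in hypoxia in both genotypes were 6 genes (Gclc, G6pdx, Gpx4, Mgst3, Prdx5 and Sod3; background 18.4%). Lower in both were 12 (Cbs, Gclm, Gss, Gsta4, Mgst1, Txn1, Txn2, Txnrd2, Srxn1, Prdx3, Prdx6 and Sod2; background 17.3%). The difference between the genotypes' hypoxia responses passed the threshold for 1 of 35, Cth, which was lower (background 2.43%, of which 1.71% lower and 0.722% higher), and 7 of 35 had an unadjusted p under 0.05 (background 15.8%). At least 2-fold changes that passed numbered 5 in WT (Cbs, Gpx3, Mgst1, Prdx3 and Sod3; background 11.2%), 1 in TAZKo (Sod3; 8.44%) and 1 in the difference of responses (Cth; 0.569%). The 3 samples of one group all lay above or all under those of the other for 18 of 35 genes between genotypes in normoxia (background 42.8%), 19 in hypoxia (50%), 27 with hypoxia in WT (54.6%) and 31 in TAZKo (61.1%).

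**Figure D1:**
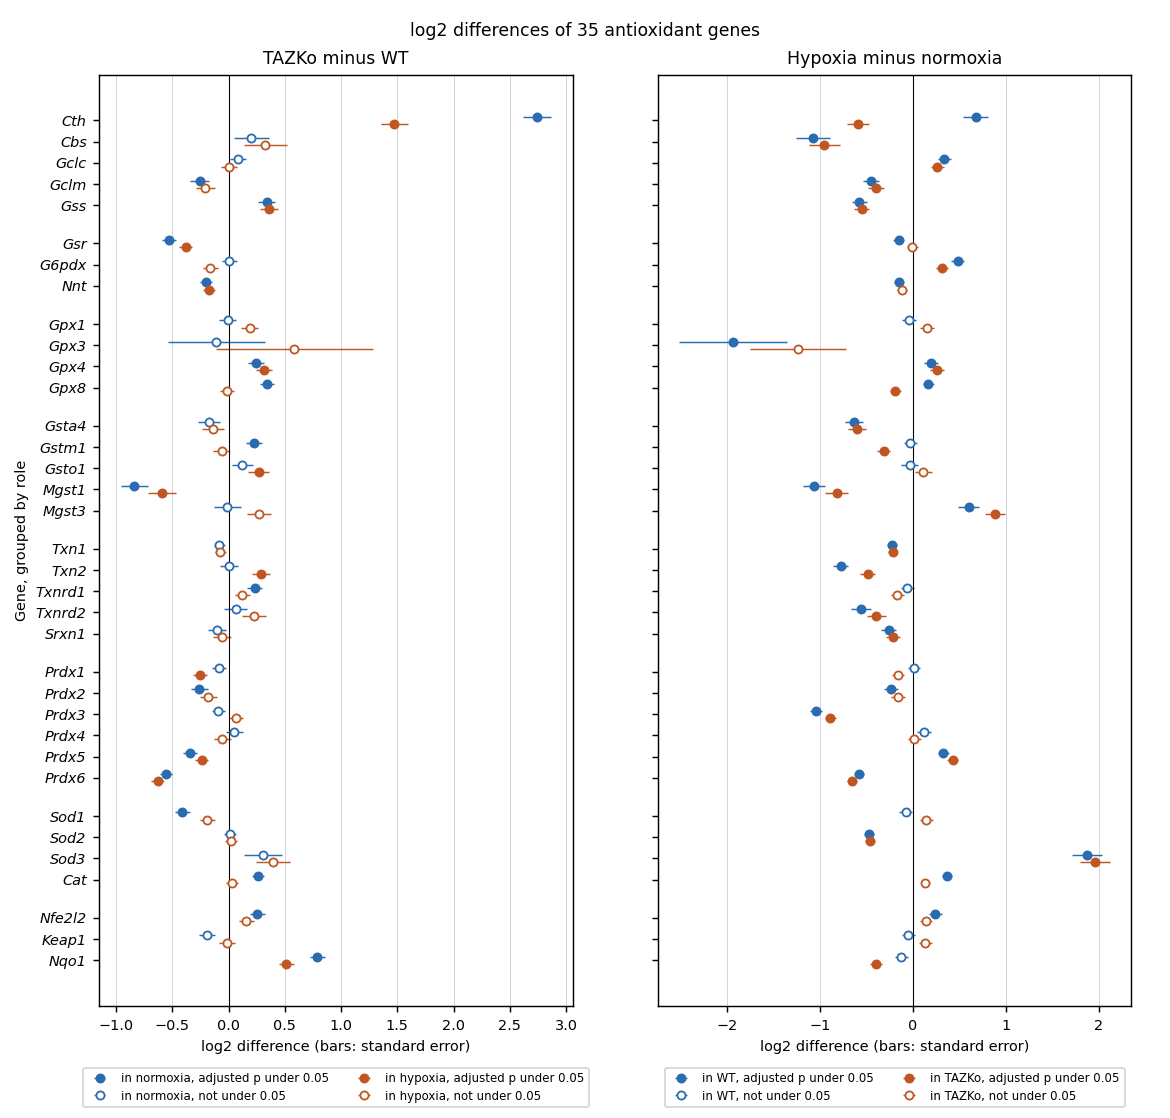
log2 differences of the 35 tested antioxidant genes, in rows grouped by role, between TAZKo and WT (left, in normoxia and hypoxia) and between hypoxia and normoxia (right, in WT and TAZKo), with standard errors as bars and filled points for an adjusted p under 0.05. Cth lies farthest right in the genotype panel, at 2.74 and 1.47, and Sod3 in the hypoxia panel, at 1.87 and 1.96.

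Of the 5 genes for cysteine and glutathione synthesis, Cth changed most. Cth encodes cystathionine gamma-lyase, which releases cysteine from cystathionine in the last step of transsulfuration, and lies on chromosome 3 from 157894248 to 157925077 (GRCm38). Its values were 11.5, 13.9 and 11.6 CPM in normoxia and 15.7, 19.97 and 23.2 in hypoxia in the WT libraries. TAZKo libraries had Cth at 81.7, 90.1 and 75.7 CPM in normoxia and 56.6, 57.3 and 50.4 in hypoxia. The 4 groups did not overlap: both sets of WT libraries lay under both sets labelled TAZKo. The log2 difference between TAZKo and WT was 2.74 (SE 0.13, adjusted p = 4.85e-09) in normoxia, a 6.68-fold higher level, and 1.47 (SE 0.12, adjusted p = 1.16e-06) in hypoxia. Hypoxia raised Cth in the libraries labelled WT by 0.68 (SE 0.13, adjusted p = 0.000712) and lowered it in those labelled TAZKo, with a log2 change of -0.59 (SE 0.12, adjusted p = 0.000992). The responses differed by log2 -1.27 (SE 0.17, adjusted p = 0.00207).

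Cbs, which encodes the enzyme one step before Cth in transsulfuration, was barely expressed, with values of 3.14, 2.76 and 3.48 CPM in normoxia and 1.30, 1.39 and 1.71 in hypoxia in the WT libraries. TAZKo libraries had Cbs at 3.79, 2.90 and 4.08 CPM in normoxia and 2.09, 1.87 and 1.67 in hypoxia. The hypoxic samples lay under the normoxic ones in both genotypes. It fell by 1.08 on the log2 scale in WT (SE 0.18, adjusted p = 0.000223) and by 0.95 in TAZKo (SE 0.17, adjusted p = 0.00044). Its genotype differences of log2 0.20 (adjusted p = 0.363) and 0.33 (adjusted p = 0.219), in normoxia and hypoxia, did not pass.

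The 2 subunits of glutamate-cysteine ligase, the enzyme that limits the rate of glutathione synthesis, moved apart in hypoxia. Gclc, the catalytic subunit, had values of 54.7, 56.5 and 55.9 CPM in normoxia and 64.2, 74.4 and 72.7 in hypoxia in the WT libraries. TAZKo libraries had Gclc at 59.7, 62.9 and 54.4 CPM in normoxia and 68.2, 71.7 and 72.1 in hypoxia. Its hypoxic samples lay above the normoxic ones in both genotypes, with log2 changes of 0.34 (SE 0.071, adjusted p = 0.00121) in WT and 0.26 (SE 0.070, adjusted p = 0.0082) in TAZKo. The call for Gclc in TAZKo was lost without TAZKo normoxia sample 3 or TAZKo hypoxia sample 2 or 3 (adjusted p up to 0.0935). Gclm, the modifier subunit, went the other way, from 132, 166 and 164 CPM in WT normoxia to 108, 119 and 111 in WT hypoxia, and from 120.3, 137 and 129 in TAZKo normoxia to 94.7, 93.8 and 104 in TAZKo hypoxia. Its log2 changes were -0.45 (SE 0.087, adjusted p = 0.000676) in WT and -0.40 (SE 0.087, adjusted p = 0.00208) in TAZKo, without overlap. In normoxia Gclm was lower in the libraries labelled TAZKo, with a difference of log2 -0.26 (adjusted p = 0.0384), with overlapping samples. The call for Gclm between genotypes was lost without WT normoxia sample 2 or 3, TAZKo normoxia sample 1 or 3, WT hypoxia sample 3 or TAZKo hypoxia sample 1 or 2 (adjusted p up to 0.137). Gclc showed genotype differences of log2 0.082 (adjusted p = 0.421) and 0.0048 (adjusted p = 0.968).

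Gss, glutathione synthetase, which adds glycine to complete the tripeptide, was lower in hypoxia, and higher in the libraries labelled TAZKo. Its values were 42.3, 35.4 and 34.6 CPM in normoxia and 23.7, 26.1 and 25.4 in hypoxia in the WT libraries. TAZKo libraries had Gss at 48.9, 47.98 and 45.1 CPM in normoxia and 31.3, 32.97 and 32.3 in hypoxia. None of the groups compared overlapped. The genotype difference was log2 0.34 (SE 0.078, adjusted p = 0.00492) in normoxia and 0.36 (SE 0.081, adjusted p = 0.00364) in hypoxia. For Gss the hypoxia change was log2 -0.58 (SE 0.081, adjusted p = 4.76e-05) in WT and -0.55 (SE 0.079, adjusted p = 7.92e-05) in TAZKo. Of the 5 synthesis genes, 3 (Cbs, Gclm and Gss) fell in hypoxia in both genotypes (background 17.3%), while Gclc rose in both (background 18.4%).

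Of the 3 genes for glutathione reduction and NADPH supply, Gsr followed genotype and G6pdx followed oxygen. Gsr encodes glutathione reductase, and its values were 85.4, 86.9 and 90.5 CPM in normoxia and 78.99, 82.02 and 75.3 in hypoxia in the WT libraries. TAZKo libraries had Gsr at 59.5, 64.2 and 58.5 CPM in normoxia and 59.7, 63.1 and 58.6 in hypoxia. All libraries labelled TAZKo lay under all those labelled WT, with log2 differences of -0.53 (SE 0.061, adjusted p = 2.03e-05) in normoxia and -0.38 (SE 0.061, adjusted p = 0.00032) in hypoxia. Its hypoxia change in WT, log2 -0.15 (adjusted p = 0.047), was lost when any 1 sample other than WT normoxia sample 1 and WT hypoxia sample 2 was left out (adjusted p up to 0.171). G6pdx, glucose-6-phosphate dehydrogenase, which supplies NADPH from the pentose phosphate pathway, had means of 138 ± 9.97 CPM in normoxia and 192 ± 9.53 in hypoxia in the WT libraries, and 138 ± 6.99 and 172 ± 5.09 in the TAZKo libraries (SD, n = 3). It rose in hypoxia by log2 0.48 (adjusted p = 4.20e-05) in WT and 0.31 (adjusted p = 0.00178) in TAZKo, and its genotype differences were 0.0064 (adjusted p = 0.958) and -0.16 (adjusted p = 0.0743). Nnt, the mitochondrial transhydrogenase that makes NADPH from NADH, was lower in the libraries labelled TAZKo, with a difference of log2 -0.20 (adjusted p = 0.0108) in normoxia and -0.17 (adjusted p = 0.0261) in hypoxia. The first of these calls was lost without WT normoxia sample 3 (adjusted p 0.053). For Nnt the second call was lost without WT hypoxia sample 1 or 3 or TAZKo hypoxia sample 1, 2 or 3 (adjusted p up to 0.0752). Nnt also fell by 0.15 on the log2 scale in hypoxia in WT (adjusted p = 0.0318). The call for Nnt was lost without WT normoxia sample 2 or 3 or WT hypoxia sample 2 or 3 (adjusted p up to 0.14). The strain label does not say which C57BL/6 substrain was used, and some substrains carry a deletion within Nnt.

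Of the 4 tested glutathione peroxidases, 2 were higher with TAZKo in normoxia (Gpx4 and Gpx8) and 1 in hypoxia (Gpx4), where 15.6% and 15.8% of all genes were. Gpx8, a peroxidase of the endoplasmic reticulum, had values of 50.8, 52.5 and 53.4 CPM in normoxia and 62.3, 58.2 and 55.6 in hypoxia in the WT libraries. TAZKo libraries had Gpx8 at 70.2, 62.6 and 65.7 CPM in normoxia and 57.1, 57.2 and 59.9 in hypoxia. The libraries labelled TAZKo were higher in normoxia without overlap, by log2 0.34 (SE 0.063, adjusted p = 0.00106), and did not differ detectably in hypoxia, at -0.014 (adjusted p = 0.889). In hypoxia Gpx8 was higher in WT by log2 0.17 (adjusted p = 0.0407) and lower in TAZKo, with a change of -0.19 (adjusted p = 0.0267), and the difference of these responses was -0.36 (adjusted p = 0.0558), over the threshold. The WT call was lost when any 1 of the 12 samples was left out (adjusted p up to 0.378). The TAZKo samples are no part of that comparison but of the shared scaling and spread. With the scaling factors of all 12 kept, 10 antioxidant genes were higher in WT hypoxia without TAZKo normoxia sample 1 or 2, as in the main fit. The number was 8 without TAZKo normoxia sample 3 or any 1 TAZKo hypoxia sample. For Gpx8 the TAZKo call was lost without TAZKo normoxia sample 1 or 3 or TAZKo hypoxia sample 1 or 2 (adjusted p up to 0.121). Without WT normoxia sample 1, the difference of the responses passed.

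Gpx4, which reduces lipid peroxides in membranes, had means of 42.7 ± 4.21 CPM in normoxia and 48.9 ± 1.22 in hypoxia in the WT libraries, and 50.7 ± 3.18 and 60.7 ± 1.42 in the TAZKo libraries (SD, n = 3). It was higher in the libraries labelled TAZKo by log2 0.25 (adjusted p = 0.0213) in normoxia and 0.31 (adjusted p = 0.00489) in hypoxia. With hypoxia Gpx4 rose by log2 0.19 (adjusted p = 0.0411) in WT and 0.26 (adjusted p = 0.0101) in TAZKo. The call in normoxia was lost when any 1 sample other than WT normoxia sample 1, TAZKo normoxia sample 2 and WT hypoxia sample 1 was left out (adjusted p up to 0.139). Hypoxia samples are no part of this comparison. Without any 1 of them, 6 to 9 of the antioxidant genes were higher in TAZKo normoxia. With the scaling factors of all 12 kept the number was 9 each time, as in the main fit. The hypoxia call was lost in WT when any 1 sample other than WT normoxia sample 1 was left out (adjusted p up to 0.344), and in TAZKo without TAZKo normoxia sample 2 or TAZKo hypoxia sample 2 or 3 (adjusted p up to 0.088). Gpx1 passed in none of the comparisons, with log2 differences of -0.0085 and 0.19 between genotypes and -0.041 and 0.15 with hypoxia. Gpx3 had 15, 13 and 13 counts in WT normoxia and 6, 0 and 4 in WT hypoxia (adjusted p = 0.013), and 19, 11 and 11 and 6, 7 and 4 in TAZKo (adjusted p = 0.0676). At counts this low a fitted fold change depends on the prior count, and none is given.

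The glutathione transferases included the largest decrease with genotype in normoxia. Mgst1, a transferase and peroxidase of microsomal and outer mitochondrial membranes, lies on chromosome 6 from 138140316 to 138156755. Its values were 118, 142 and 149 CPM in normoxia and 74.6, 61.9 and 58.7 in hypoxia in the WT libraries. TAZKo libraries had Mgst1 at 63.3, 80.1 and 85.2 CPM in normoxia and 40.6, 46.1 and 42.8 in hypoxia. Each pair of groups was separate, except that TAZKo normoxia and WT hypoxia, which no comparison sets against each other, overlapped. The genotype difference was log2 -0.84 (SE 0.12, adjusted p = 0.000149) in normoxia and -0.59 (SE 0.12, adjusted p = 0.00236) in hypoxia. For Mgst1 the hypoxia change was log2 -1.07 (SE 0.12, adjusted p = 7.65e-06) in WT and -0.82 (SE 0.12, adjusted p = 0.000121) in TAZKo. Mgst3, a related membrane enzyme, moved against it in hypoxia, with values of 3.80, 3.60 and 3.40 CPM in normoxia and 5.45, 4.80 and 6.04 in hypoxia in the WT libraries. TAZKo libraries had Mgst3 at 3.79, 3.55 and 3.40 CPM in normoxia and 6.32, 6.57 and 6.83 in hypoxia. It rose by log2 0.60 (SE 0.11, adjusted p = 0.00061) in WT and by 0.88 (SE 0.11, adjusted p = 2.60e-05) in TAZKo, without overlap, and its genotype differences were -0.0096 (adjusted p = 0.964) and 0.27 (adjusted p = 0.0644).

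Gsta4, which conjugates the lipid peroxidation product 4-hydroxynonenal, fell in hypoxia by 0.64 on the log2 scale in WT (adjusted p = 0.000126) and by 0.60 in TAZKo (adjusted p = 0.000278), from means of 151 and 134 CPM to 97.3 and 88.4. Gstm1 was higher in TAZKo normoxia by log2 0.23 (adjusted p = 0.0279). The call for Gstm1 between genotypes was lost when any 1 sample other than WT normoxia sample 1 and WT hypoxia sample 1 was left out (adjusted p up to 0.167). Hypoxia samples among these are no part of that comparison but of the shared scaling and spread. Gstm1 also fell with hypoxia in TAZKo by 0.32 on the log2 scale (adjusted p = 0.00283), while its change in WT was -0.027 (adjusted p = 0.782). Gsto1, an omega-class transferase, was higher in TAZKo hypoxia by log2 0.27 (adjusted p = 0.0424). The call for Gsto1 was lost without WT normoxia sample 2, TAZKo normoxia sample 2 or 3, WT hypoxia sample 2 or 3 or TAZKo hypoxia sample 1, 2 or 3 (adjusted p up to 0.129).

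**Figure D2:**
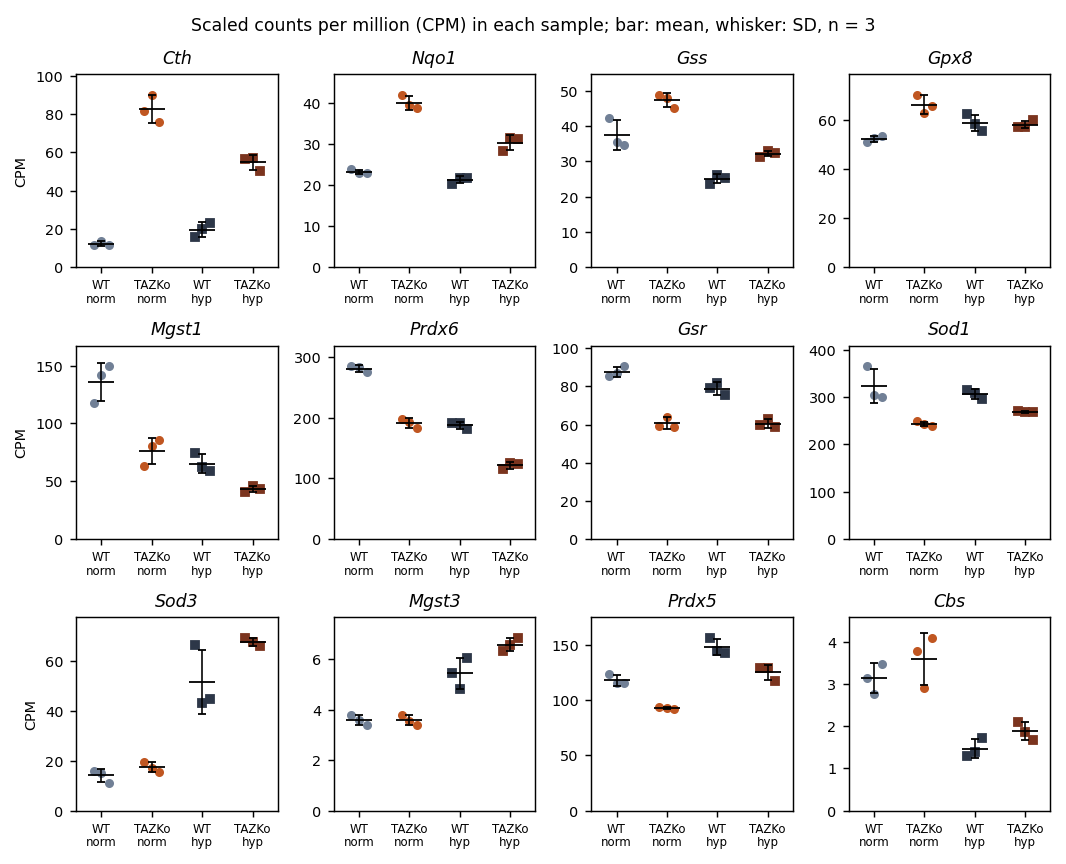
CPM in each sample for 12 antioxidant genes, with 3 points per group, the group mean as a bar and the SD as a whisker. The libraries labelled TAZKo stand above the WT ones of the same condition for Cth, Nqo1 and Gss and under them for Mgst1, Prdx6 and Gsr. The hypoxic samples stand above the normoxic ones for Sod3 and under them for Cbs.

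Among the thioredoxins, their reductases and sulfiredoxin, 4 of 5 genes fell in hypoxia in each genotype (background for lower 25% in WT and 21.6% in TAZKo) and none rose. Txn1 had means of 371 ± 8.23 CPM in normoxia and 318 ± 2.98 in hypoxia in the WT libraries, and 351 ± 6.34 and 302 ± 10.8 in the TAZKo libraries (SD, n = 3). It fell by 0.23 on the log2 scale in WT (adjusted p = 0.00166) and 0.22 in TAZKo (adjusted p = 0.00286). Srxn1, sulfiredoxin, which repairs overoxidized peroxiredoxins, had values of 74.1, 64.7 and 62.4 CPM in normoxia and 58.3, 56.6 and 52.9 in hypoxia in the WT libraries. TAZKo libraries had Srxn1 at 66.5, 62.9 and 58.3 CPM in normoxia and 51.5, 56.9 and 52.9 in hypoxia. Its hypoxic samples lay under the normoxic ones, with changes of log2 -0.26 (SE 0.078, adjusted p = 0.0124) in WT and -0.22 (SE 0.078, adjusted p = 0.0369) in TAZKo. The WT call was lost without WT hypoxia sample 3 (adjusted p 0.06). For Srxn1 the TAZKo call was lost without TAZKo normoxia sample 1 or 2 or TAZKo hypoxia sample 1 or 3 (adjusted p up to 0.142). Its genotype differences were log2 -0.10 (adjusted p = 0.362) and -0.055 (adjusted p = 0.632).

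Txnrd1, the cytosolic thioredoxin reductase, was the exception in hypoxia. Its values were 259, 281 and 268 CPM in normoxia and 248, 269 and 259 in hypoxia in the WT libraries. TAZKo libraries had Txnrd1 at 324, 332 and 294 CPM in normoxia and 269, 305 and 272 in hypoxia. Its hypoxia changes of log2 -0.058 (adjusted p = 0.493) in WT and -0.17 (adjusted p = 0.0587) in TAZKo did not pass. In normoxia the libraries labelled TAZKo were higher without overlap, by log2 0.23 (SE 0.067, adjusted p = 0.0178). In hypoxia the difference was log2 0.12 (adjusted p = 0.182). The call for Txnrd1 in normoxia was lost without WT normoxia sample 3, TAZKo normoxia sample 1 or 2, WT hypoxia sample 3 or TAZKo hypoxia sample 3 (adjusted p up to 0.155).

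Among the peroxiredoxins, 3 of 6 were lower with TAZKo in each condition (background for lower 14.9% in normoxia and 16.9% in hypoxia) and 0 higher. Prdx6, which uses glutathione and also acts as a phospholipase, had the second largest decrease with genotype after Mgst1 in normoxia. It lies on chromosome 1 from 161240112 to 161251219, and its values were 285, 283 and 275 CPM in normoxia and 191, 191 and 181 in hypoxia in the WT libraries. TAZKo libraries had Prdx6 at 198, 193 and 182 CPM in normoxia and 115, 125 and 123 in hypoxia. It was lower with TAZKo and lower in hypoxia, and TAZKo hypoxia held the lowest samples and WT normoxia the highest. The genotype difference was log2 -0.56 (SE 0.056, adjusted p = 6.03e-06) in normoxia and -0.63 (SE 0.056, adjusted p = 2.18e-06) in hypoxia. With hypoxia it changed by log2 -0.58 (SE 0.056, adjusted p = 1.49e-06) in WT and -0.66 (SE 0.056, adjusted p = 8.18e-07) in TAZKo.

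Prdx5, found in mitochondria, peroxisomes and cytosol, rose in hypoxia and was lower with TAZKo. Its values were 124, 115 and 115 CPM in normoxia and 156, 144 and 143 in hypoxia in the WT libraries. TAZKo libraries had Prdx5 at 93.6, 93.1 and 92.5 CPM in normoxia and 129, 129 and 118 in hypoxia. The hypoxia change was log2 0.33 (SE 0.060, adjusted p = 0.000452) in WT and 0.43 (SE 0.060, adjusted p = 6.73e-05) in TAZKo. For Prdx5 the genotype difference was log2 -0.34 (SE 0.060, adjusted p = 0.000678) in normoxia and -0.24 (SE 0.059, adjusted p = 0.00711) in hypoxia, with no overlap in any of the 4. Of the cytosolic pair, Prdx2 was lower in TAZKo normoxia, with a difference of log2 -0.26 (adjusted p = 0.0163), and Prdx1 in TAZKo hypoxia, with a difference of -0.25 (adjusted p = 0.00889). The call for Prdx2 in normoxia was lost without TAZKo normoxia sample 2 or 3 (adjusted p up to 0.0652). Prdx2 also fell with hypoxia in WT by 0.24 on the log2 scale (adjusted p = 0.0156). The call for Prdx2 was lost without WT hypoxia sample 2 or 3 (adjusted p up to 0.0794). Prdx4, of the endoplasmic reticulum, passed in none, with means between 112 and 122 CPM.

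The superoxide dismutases differed in their responses. Sod3, the secreted enzyme, had the largest hypoxia increase of the family, with values of 15.97, 15.1 and 11.3 CPM in normoxia and 66.7, 43.3 and 45.01 in hypoxia in the WT libraries. TAZKo libraries had Sod3 at 19.6, 17.2 and 15.5 CPM in normoxia and 69.3, 67.9 and 66.1 in hypoxia. The hypoxic samples lay above the normoxic ones in both genotypes, and WT hypoxia spread widely, with sample 1 above the other 2. Sod3 rose by log2 1.87 (SE 0.16, adjusted p = 6.34e-07) in WT, 3.66-fold, and by 1.96 (SE 0.16, adjusted p = 5.15e-07) in TAZKo, 3.90-fold. Its genotype differences of log2 0.31 (adjusted p = 0.193) and 0.39 (adjusted p = 0.0603) did not pass. Sod1, the cytosolic enzyme, had 365, 305 and 300.4 CPM in WT normoxia and 249, 242 and 239.6 in TAZKo normoxia. The difference was log2 -0.41 (SE 0.069, adjusted p = 0.000536) without overlap, and in hypoxia -0.19 (adjusted p = 0.0514). Cat, catalase of peroxisomes, was higher in TAZKo normoxia by log2 0.26 (adjusted p = 0.00206) and rose with hypoxia in WT by 0.37 (adjusted p = 6.49e-05), while its change in TAZKo was 0.13 (adjusted p = 0.0537). The difference between the hypoxia responses of Cat was log2 -0.23 (adjusted p = 0.138).

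Nfe2l2 and Keap1, the regulator and its inhibitor, changed little. Nfe2l2 had values of 97.9, 96.9 and 97.8 CPM in normoxia and 104, 116 and 126 in hypoxia in the WT libraries. TAZKo libraries had Nfe2l2 at 113, 121 and 116 CPM in normoxia and 124, 128 and 134 in hypoxia. It was higher in TAZKo normoxia without overlap, by log2 0.26 (SE 0.067, adjusted p = 0.0105), and rose with hypoxia in WT by 0.24 (SE 0.067, adjusted p = 0.00829). The first call was lost without WT normoxia sample 2 or 3 or TAZKo normoxia sample 2 or 3 (adjusted p up to 0.0977). For Nfe2l2 the second call was lost without WT normoxia sample 2 or 3 or WT hypoxia sample 2 or 3 (adjusted p up to 0.182). Keap1 had 77.5, 71.3 and 66.5 CPM in WT normoxia and 65.7, 61.5 and 61.01 in TAZKo normoxia, separate groups whose difference of log2 -0.19 (adjusted p = 0.0539) did not pass. With the replicate number as a block it passed (adjusted p = 0.013). In WT hypoxia Keap1 had 73.99, 68.9 and 65.1 CPM and in TAZKo hypoxia 69.9, 70.3 and 65.97, which overlapped, with a difference of log2 -0.013 (adjusted p = 0.914).

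Nqo1, the quinone reductase often read as a sign of NRF2 activity, had the largest genotype increase after Cth among the genes that passed. It lies on chromosome 8 from 107388225 to 107403206, and its values were 23.9, 22.9 and 22.9 CPM in normoxia and 20.3, 21.8 and 21.8 in hypoxia in the WT libraries. TAZKo libraries had Nqo1 at 42.03, 39.5 and 38.7 CPM in normoxia and 28.2, 31.6 and 31.3 in hypoxia. The libraries labelled TAZKo lay above those labelled WT under both conditions, by log2 0.79 (SE 0.067, adjusted p = 1.34e-06) in normoxia and 0.51 (SE 0.068, adjusted p = 6.96e-05) in hypoxia. In hypoxia it was lower in TAZKo, with a change of log2 -0.40 (adjusted p = 0.000278), and its change in WT was -0.13 (adjusted p = 0.147). Of 9 such genes in the family (Gclc, Gclm, Gsr, G6pdx, Txn1, Txnrd1, Srxn1, Prdx1 and Nqo1), 2 were higher (Txnrd1 and Nqo1) and 2 lower (Gclm and Gsr) in TAZKo normoxia (background 15.6% and 14.9%), and 1 higher (Nqo1) and 2 lower (Gsr and Prdx1) in TAZKo hypoxia (15.8% and 16.9%). Their median log2 difference was -0.083 in normoxia and -0.073 in hypoxia.

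The letters of the antioxidant response element were sought in promoters, since NRF2 is the regulator that gives the family its name. RefSeq start sites on GRCm38.p6, the patched release of the genome that the submitters' processing notes call mm10, gave 36 promoters of 29 of the 36 genes, each from 250 bases before to 50 bases after the start. No promoter was at hand for Gclc, Cth, Gsr, Nnt, Prdx6, Sod3 and Gsta4. The element TGACNNNGC, on either strand, stood in 8 of the 36 promoters (22.2%), each of a different gene, and in 12.4% of all 32851 promoters. The 8 sites are printed to set the same core beside unlike responses, 29 bases each along the gene's strand, with the element in capitals. They lie at chr3:122245413-122245441 (plus strand), chrX:74428919-74428947 (minus), chr6:138140461-138140489 (plus), chr10:82859104-82859132 (plus), chr2:152105542-152105570 (plus), chr4:116685456-116685484 (plus), chr16:90220696-90220724 (plus) and chr2:75704885-75704913 (minus).
Gclm: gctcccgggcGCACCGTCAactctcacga
G6pdx: aggcgggtcaGCTCAGTCAaagcacacgc
Mgst1: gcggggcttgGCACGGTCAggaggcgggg
Txnrd1: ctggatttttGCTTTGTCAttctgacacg
Srxn1: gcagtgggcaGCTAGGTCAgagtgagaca
Prdx1: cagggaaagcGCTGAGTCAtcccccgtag
Sod1: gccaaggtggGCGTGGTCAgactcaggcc
Nfe2l2: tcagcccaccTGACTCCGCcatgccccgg
The site of Nfe2l2 matches on the gene's strand, and the other 7 on the opposite strand, so they read as GCNNNGTCA. That of Srxn1 starts 29 bases after the start, and the others lie before it, from 56 bases in Mgst1 and Sod1 to 240 in Nfe2l2. In TAZKo normoxia, 2 of these 8 genes were higher (Txnrd1 and Nfe2l2; background 15.6%), 3 were lower (Gclm, Mgst1 and Sod1; background 14.9%) and 3 did not pass. The promoter of Nqo1, which had the largest genotype increase of the 9 classical targets, held no match in this window. A match is a description of the letters and not a bound site.

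Of the 5 members known chiefly from mitochondria (Txn2, Txnrd2, Prdx3, Sod2 and Nnt), 5 fell with hypoxia in WT and 4 in TAZKo (background for lower 25% and 21.6%). Prdx5, found in mitochondria and elsewhere, is not among them and rose in both genotypes. The 5 had median log2 changes of -0.56 and -0.46 against 0.0089 and -0.0088 over all genes. Prdx3, the peroxiredoxin of the mitochondrial matrix, fell most, with values of 113, 129 and 129 CPM in normoxia and 60.1, 61.9 and 57.4 in hypoxia in the WT libraries. TAZKo libraries had Prdx3 at 115, 115 and 117 CPM in normoxia and 61.4, 62.4 and 64.1 in hypoxia. The hypoxic samples lay far under the normoxic ones, with changes of log2 -1.05 (SE 0.063, adjusted p = 1.56e-08) in WT and -0.89 (SE 0.062, adjusted p = 1.24e-07) in TAZKo. The genotypes did not differ detectably, with log2 -0.089 (adjusted p = 0.301) in normoxia and 0.067 (adjusted p = 0.453) in hypoxia.

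Txn2, the mitochondrial thioredoxin that reduces Prdx3, had means of 213 ± 28.2 CPM in normoxia and 125 ± 6.23 in hypoxia in the WT libraries, and 214 ± 8.78 and 152 ± 2.54 in the TAZKo libraries (SD, n = 3). It fell in hypoxia by 0.77 on the log2 scale in WT (adjusted p = 3.40e-06) and 0.49 in TAZKo (adjusted p = 0.000267). In hypoxia it was higher in the libraries labelled TAZKo by log2 0.29 (adjusted p = 0.0145). The call for Txn2 between genotypes was lost without WT hypoxia sample 3 or TAZKo hypoxia sample 1 (adjusted p up to 0.064). Its reductase Txnrd2 fell by 0.56 on the log2 scale in WT (adjusted p = 0.000528) and 0.39 in TAZKo (adjusted p = 0.00629). Sod2, the manganese superoxide dismutase of the matrix, had means of 66.5 ± 1.16 CPM in normoxia and 47.9 ± 1.95 in hypoxia in the WT libraries, and 66.97 ± 1.15 and 48.6 ± 0.429 in the TAZKo libraries (SD, n = 3). It changed by log2 -0.47 (adjusted p = 7.11e-06) in WT and -0.46 (adjusted p = 1.23e-05) in TAZKo. Genotype differences of Sod2 were log2 0.011 (adjusted p = 0.906) and 0.020 (adjusted p = 0.809). Cytosolic enzymes of the same kinds had log2 changes with hypoxia of -0.23 and -0.22 for Txn1, -0.058 and -0.17 for Txnrd1, 0.0077 and -0.16 for Prdx1, -0.24 and -0.16 for Prdx2, -0.58 and -0.66 for Prdx6, and -0.077 and 0.14 for Sod1, in WT and TAZKo. Of these, Txn1 and Prdx6 passed in both genotypes and Prdx2 in WT. Whether a mitochondrial gene changed more than a cytosolic one was not tested.

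**Figure D3:**
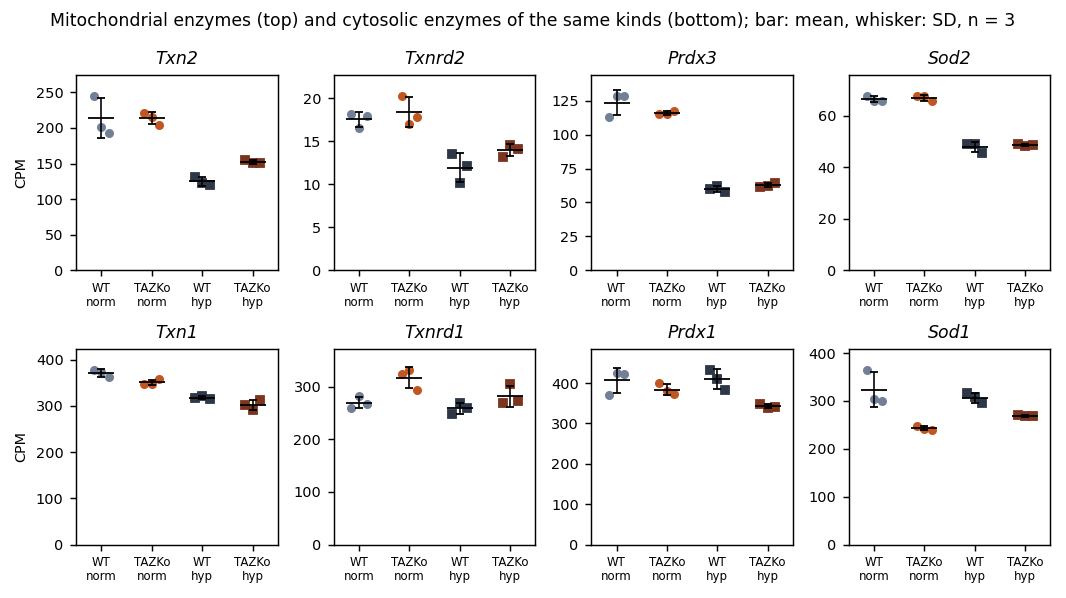
CPM in each sample for 4 mitochondrial enzymes (top) and 4 cytosolic enzymes of the same kinds (bottom), with the group mean as a bar and the SD as a whisker (n = 3). For Txn2, Txnrd2, Prdx3 and Sod2, and for the cytosolic Txn1, all hypoxic samples lie under all normoxic samples of the same genotype, and for Txnrd1 the groups overlap. Prdx2 and Prdx6 are not shown.

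The 250 bases before the start of Txn2 (chr15:77928995-77929244, minus strand), Txnrd2 (chr16:18426167-18426416, plus), Prdx3 (chr19:60874539-60874788, minus) and Sod2 (chr17:13007589-13007838, plus) are printed because these genes fell together in both genotypes. They are from RefSeq on GRCm38.p6, with the core of the hypoxia response element (ACGTG or GCGTG, either strand) in capitals.
Txn2: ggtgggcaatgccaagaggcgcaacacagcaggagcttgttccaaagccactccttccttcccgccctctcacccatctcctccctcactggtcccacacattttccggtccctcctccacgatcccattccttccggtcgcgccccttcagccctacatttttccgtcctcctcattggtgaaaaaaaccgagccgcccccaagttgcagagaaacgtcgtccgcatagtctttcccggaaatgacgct
Txnrd2: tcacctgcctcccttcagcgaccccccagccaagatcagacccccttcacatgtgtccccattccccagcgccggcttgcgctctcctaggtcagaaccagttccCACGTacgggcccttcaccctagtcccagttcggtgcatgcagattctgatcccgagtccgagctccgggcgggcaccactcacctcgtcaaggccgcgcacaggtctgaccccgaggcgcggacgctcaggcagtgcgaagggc
Prdx3: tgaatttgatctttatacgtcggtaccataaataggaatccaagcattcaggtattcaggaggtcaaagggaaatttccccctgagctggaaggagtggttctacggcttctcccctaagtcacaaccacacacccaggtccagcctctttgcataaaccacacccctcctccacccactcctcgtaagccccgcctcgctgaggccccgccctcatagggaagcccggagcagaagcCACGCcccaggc
Sod2: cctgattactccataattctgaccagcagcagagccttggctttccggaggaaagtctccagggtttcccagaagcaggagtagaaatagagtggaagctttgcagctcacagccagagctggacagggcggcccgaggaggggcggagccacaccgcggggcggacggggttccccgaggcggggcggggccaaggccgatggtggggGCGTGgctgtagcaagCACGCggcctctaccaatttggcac
The core occurs 0 times in the sequence of Txn2, 1 time each in those of Txnrd2 and Prdx3, and 2 times in that of Sod2. Between 55.6% (Prdx3) and 65.6% (Txnrd2) of the bases are C or G. Over the 300-base promoters, 25 of the 36 of the family (69.4%) and 43.8% of all promoters held the core, and genes that rose and genes that fell in hypoxia are among the 25. The CEBP-ATF response element TGATGNAA stood in 0 of the 36 and in 3.97% of all promoters; the promoter of Cth was not examined.

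Genotype differences also moved with chromosome. The median log2 difference between TAZKo and WT over all tested genes of chromosome 10 was 0.31 in normoxia and 0.29 in hypoxia, of chromosome 19 -0.27 and -0.28, and of chromosome 8 -0.16 and -0.15. Txnrd1 (0.23 in normoxia) and Gpx4 (0.25) lie on chromosome 10 and differed by no more than its median. In hypoxia Gpx4 differed by 0.31. Prdx5 lies on chromosome 19, where its differences of -0.34 and -0.24 were close to the median, and Gsto1 on the same chromosome went against it (0.27 in hypoxia). On chromosome 8, Prdx2 (-0.26 in normoxia) and Gsr (-0.53) shared the direction of the median, and Nqo1 (0.79) went against it. Cth exceeded the median of chromosome 3, 0.13, by 2.61 in normoxia. The part of these chromosome-wide differences in the calls was not tested.

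**Figure D4:**
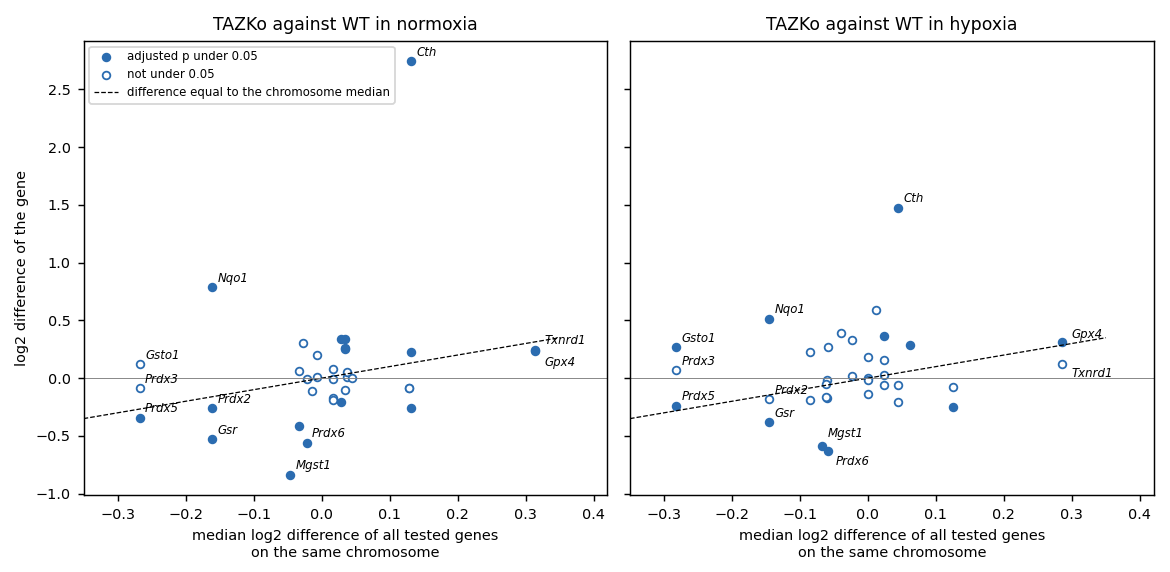
log2 difference of each tested antioxidant gene between TAZKo and WT (vertical) against the median log2 difference of all tested genes on its chromosome (horizontal), in normoxia and hypoxia, with filled points for an adjusted p under 0.05 and a dashed line where both are equal. In normoxia Txnrd1 and Gpx4 lie near the line at 0.31 on the horizontal axis, and Cth, Nqo1, Mgst1 and Prdx6 lie far from it.

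Other genes of the same pathways were taken from lists by function, also chosen with earlier results of these data known. Of these 70 genes, 64 were tested. They gave 16 higher and 14 lower in TAZKo normoxia (background 15.6% and 14.9%) and 15 higher and 16 lower in TAZKo hypoxia (15.8% and 16.9%). With hypoxia 27 rose and 23 fell in WT (background 26% and 25%), and 18 rose and 23 fell in TAZKo (22.2% and 21.6%). For 9 the hypoxia response differed between genotypes, in each case more negative in TAZKo (background 1.71% lower and 0.722% higher). Among 11 genes for cystine uptake, glutathione breakdown and export, Slc7a11, the cystine transporter, had the largest genotype increase in both conditions, with values of 4.11, 7.55 and 6.30 CPM in normoxia and 11.6, 18.4 and 19.1 in hypoxia in the WT libraries. TAZKo libraries had Slc7a11 at 27.1, 31.4 and 30.3 CPM in normoxia and 30.96, 30.1 and 30.04 in hypoxia. WT normoxia was lowest and WT hypoxia lay between it and the libraries labelled TAZKo. The genotype difference was log2 2.30 (SE 0.19, adjusted p = 1.12e-06) in normoxia and 0.88 (SE 0.17, adjusted p = 0.00166) in hypoxia. With hypoxia it rose in WT by log2 1.46 (adjusted p = 3.65e-05) and changed by 0.036 (adjusted p = 0.884) in TAZKo, and the responses differed by -1.42 (adjusted p = 0.0113). That last call was lost without WT hypoxia sample 3 (adjusted p 0.0512).

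Chac1, which degrades glutathione in the cytosol, had means of 30.3 ± 4.18 CPM in normoxia and 92.7 ± 12.1 in hypoxia in the WT libraries, and 114 ± 7.76 and 109.7 ± 9.82 in the TAZKo libraries (SD, n = 3). It rose with hypoxia in WT by log2 1.62 (adjusted p = 9.46e-08), changed by -0.059 (adjusted p = 0.699) in TAZKo, and its responses differed by -1.68 (adjusted p = 0.00016). Oplah, which recycles 5-oxoproline from glutathione breakdown, was lower in the libraries labelled TAZKo, with a difference of log2 -0.62 (adjusted p = 0.000268) and -0.75 (adjusted p = 8.34e-05), in normoxia and hypoxia. Ggt7, of the gamma-glutamyltransferase family, had differences of log2 -1.33 (adjusted p = 7.77e-05) and -1.61 (adjusted p = 9.68e-06). Abcc1, an exporter of glutathione and its conjugates, rose with hypoxia by log2 0.66 (adjusted p = 1.28e-06) in WT and 0.57 (adjusted p = 7.70e-06) in TAZKo. Ggct, gamma-glutamylcyclotransferase, fell with hypoxia by 0.52 on the log2 scale in WT (adjusted p = 0.00238) and 0.48 in TAZKo (adjusted p = 0.00578). Oplah also passed as lower in hypoxia in both genotypes. In TAZKo its decrease was the largest of this list among genes with a mean of at least 1 CPM.

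Of 17 tested further NRF2 targets, 0 were higher and 9 lower in TAZKo normoxia (background 15.6% and 14.9%), and 1 was higher (Blvrb) and 10 lower in TAZKo hypoxia (15.8% and 16.9%), with medians of -0.22 and -0.25. At an unadjusted p under 0.05, 10 of the 17 differed in normoxia (background 40.5%). Hmox1, heme oxygenase, had values of 115, 97.03 and 99.3 CPM in normoxia and 315, 277 and 320.2 in hypoxia in the WT libraries. TAZKo libraries had Hmox1 at 71.3, 69.1 and 63.9 CPM in normoxia and 144, 149.5 and 142 in hypoxia. It rose with hypoxia in both genotypes, by log2 1.55 (adjusted p = 2.89e-09) in WT and 1.09 (adjusted p = 1.55e-07) in TAZKo. It was lower in the libraries labelled TAZKo, with a difference of log2 -0.61 (adjusted p = 5.63e-05) in normoxia and -1.07 (adjusted p = 3.06e-07) in hypoxia. The difference of its responses, log2 -0.46 (adjusted p = 0.0447), was lost when any 1 sample other than WT normoxia sample 1 and WT hypoxia sample 2 was left out (adjusted p up to 0.147). With hypoxia 10 of the 17 rose and 6 fell in WT, and 8 rose and 5 fell in TAZKo (background 26% and 25%, and 22.2% and 21.6%). Ugdh, which makes UDP-glucuronate, rose by log2 1.37 (adjusted p = 5.33e-09) in WT and 1.15 (adjusted p = 4.54e-08) in TAZKo, and Slc48a1, a heme transporter, had changes of -1.34 (adjusted p = 3.27e-07) and -1.03 (adjusted p = 5.69e-06). The biliverdin reductase gene Blvrb differed between genotypes by log2 0.25 (adjusted p = 0.0426) in hypoxia. The call for Blvrb was lost when any 1 sample other than WT normoxia sample 1 and WT normoxia sample 2 was left out (adjusted p up to 0.158). Aldh3a1, an aldehyde dehydrogenase, rose with hypoxia in WT by log2 1.18 (adjusted p = 2.58e-07) and changed in TAZKo by 0.20 (adjusted p = 0.115).

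Of 10 partners and regulators of NRF2, 6 rose and 1 fell in hypoxia in each genotype (background 26% and 25% in WT, 22.2% and 21.6% in TAZKo). The small MAF gene Maff, whose protein pairs with NRF2 on DNA, had values of 12.3, 13.2 and 11.8 CPM in normoxia and 104, 96.3 and 108 in hypoxia in the WT libraries. TAZKo libraries had Maff at 9.80, 10.6 and 10.4 CPM in normoxia and 70.2, 68.1 and 61.3 in hypoxia. It rose by log2 3.05 (adjusted p = 3.91e-12) in WT and 2.70 (adjusted p = 1.82e-11) in TAZKo, with all hypoxic samples above all normoxic ones. It was lower in the libraries labelled TAZKo, with a difference of log2 -0.28 (adjusted p = 0.0204) in normoxia and -0.63 (adjusted p = 1.45e-05) in hypoxia. The call for Maff in normoxia was lost without WT normoxia sample 2 or TAZKo normoxia sample 1 or 3 (adjusted p up to 0.0784). Btrc, an adaptor that marks NRF2 for degradation apart from KEAP1, fell by 0.51 on the log2 scale in WT (adjusted p = 1.39e-05) and 0.33 in TAZKo (adjusted p = 0.000732). Fyn, a kinase reported to promote nuclear export of NRF2, was higher in the libraries labelled TAZKo by log2 1.24 (adjusted p = 3.17e-08) in normoxia and 0.70 (adjusted p = 6.75e-06) in hypoxia.

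Among 26 tested other glutathione and thioredoxin enzymes, 9 were higher and 1 lower in TAZKo normoxia (background 15.6% and 14.9%), and 8 and 2 in TAZKo hypoxia (15.8% and 16.9%). Txnip, which binds and inhibits thioredoxin, had means of 13.98 ± 2.34 CPM in normoxia and 65.6 ± 13.9 in hypoxia in the WT libraries, and 26.5 ± 3.89 and 56.9 ± 5.86 in the TAZKo libraries (SD, n = 3). It rose with hypoxia by log2 2.23 (adjusted p = 1.18e-07) in WT and 1.09 (adjusted p = 7.59e-05) in TAZKo, and the responses differed by -1.14 (adjusted p = 0.0167). The call for Txnip was lost without TAZKo normoxia sample 3 or TAZKo hypoxia sample 2 or 3 (adjusted p up to 0.0646). Sesn2, a stress-induced sestrin, had means of 37.6 ± 3.75 CPM in normoxia and 88.3 ± 14.7 in hypoxia in the WT libraries, and 127 ± 8.50 and 138 ± 4.16 in the TAZKo libraries (SD, n = 3). The difference in normoxia was log2 1.76 (adjusted p = 5.88e-08). Gsta3, an alpha-class transferase, fell with hypoxia by 2.56 on the log2 scale in WT (adjusted p = 4.65e-08) and 2.80 in TAZKo (adjusted p = 2.57e-07). With TAZKo it was lower, with a difference of log2 -1.27 (adjusted p = 2.65e-05) in normoxia. Msrb3, a methionine sulfoxide reductase, was higher in the libraries labelled TAZKo by log2 0.81 (adjusted p = 1.26e-06) and 0.82 (adjusted p = 1.21e-06), in normoxia and hypoxia.

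**Figure D5:**
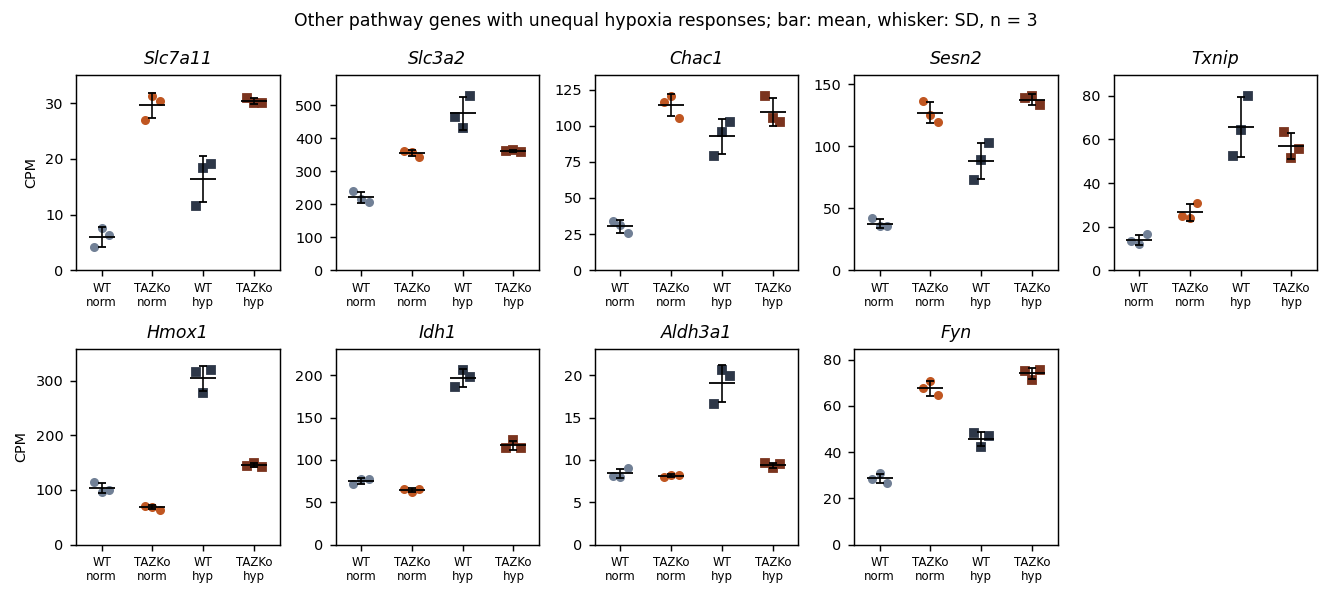
CPM in each sample for the 9 other pathway genes whose hypoxia responses differed between genotypes, with the group mean as a bar and the SD as a whisker (n = 3). For Slc7a11, Chac1 and Sesn2 WT normoxia is lowest and the TAZKo groups lie close together, and for Hmox1 and Idh1 WT hypoxia is highest.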

How the data were processed

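Per the labels' protocols, RNA was extracted with Trizol, purified again and made into libraries with the Illumina TruSeq RNA v2 kit; the submitters' processing notes name the build mm10. The authors deposited 1 table of whole-number read counts per Ensembl gene for each of 12 samples; the aligner, the counting program and the annotation are not given in the sources used here. Of 48709 IDs, 48349 had a symbol. Genes were filtered with filterByExpr over 4 groups (14408 left), scaled with TMM and tested with the edgeR 4.0.16 quasi-likelihood test (R 4.3.3, limma 3.58.1), all 12 samples and 1 coefficient per group, with Benjamini-Hochberg adjustment over all genes tested and a threshold of 0.05. All adjusted p-values are from this test unless another is named. The standard error is the log2 difference divided by the square root of F. CPM are TMM-scaled; floors of 3 counts cover counting error only. RPKM and coordinates use GENCODE M21 on GRCm38.

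The genes and lists were chosen with earlier results of these data known. Values per sample were given for Gclc, Gclm, Txnrd1, Srxn1, Nqo1, Nfe2l2 and Keap1, for genes past the threshold in the difference of responses, and for the 3 largest passing changes in each direction of the other 4 comparisons with a mean of at least 1 CPM. Of each list of other pathway genes, the largest passing change in each direction was named. Promoters came from RefSeq (GRCm38.p6). Replicate numbers and lanes (4 and 5, from the names of the deposited tables) are the labels' own. The labels do not say what a number stands for. In both genotypes sample 1 was on lane 4, sample 3 on lane 5, and sample 2 on lane 4 in normoxia and lane 5 in hypoxia. Lane was thus not balanced over oxygen. With lane as a covariate, 24 antioxidant genes passed for hypoxia in WT against 26 without it, and 21 against 22 in TAZKo. Deviations of same-numbered samples from their group means correlated at 0.354, 0.149 and 0.228 between WT and TAZKo normoxia. Between normoxia and hypoxia in WT they correlated at 0.368, 0.204 and 0.152. All were over 0.1, and by that rule these 2 comparisons were taken as paired. Samples 2 and 3 also correlated across numbers, at 0.116 and 0.112 between genotypes in normoxia and 0.147 and 0.180 with hypoxia in WT. WT normoxia sample 3 correlated better with WT hypoxia sample 2 (0.180) than with its own number (0.152). The values thus set sample 1 apart and do not settle whether samples 2 and 3 are pairs. The fit without the block stayed the main one, and the blocked value stands beside a call that it changes. Between WT and TAZKo hypoxia (0.055, -0.024 and 0.121) and between normoxia and hypoxia in TAZKo (0.028, -0.024 and 0.095) the numbers were not taken as pairs. Alternatives were DESeq2 1.42.0 as size factors and as test, upper quartile scaling, library size alone, no filter, a minimum mean of 5 CPM, a block for replicate number, lane as a covariate, only the groups compared, and leaving out each sample, the last also with the TMM factors of all 12 kept, which was added after seeing the data.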

Additional observations from a re-analysis of the deposited data

Results flagged for a closer look

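For 10 genes of the family and its pathways, the test of unequal hypoxia responses in the libraries labelled TAZKo and WT (edgeR quasi-likelihood test) passed, which is what singled them out. Slc3a2 and Idh1 lie outside the naming rule and were chosen after their values were seen. All 10 differences were negative, that is, hypoxia moved the transcript less upward or more downward in the libraries labelled TAZKo. Most of the passing differences over all 14408 genes had the same sign, with 246 negative (1.71%) and 104 positive (0.722%).

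Cth, the only one of the 36 antioxidant genes among them, had a log2 difference of responses of -1.27 (adjusted p = 0.00207). In the genes of cystine uptake and glutathione breakdown, the difference was log2 -1.42 (adjusted p = 0.0113) for Slc7a11, -1.08 (adjusted p = 0.000222) for Slc3a2, the partner subunit of the cystine transporter, and -1.68 (adjusted p = 0.00016) for Chac1. Slc3a2 had means of 221 ± 17.5 CPM in normoxia and 475 ± 49.7 in hypoxia in the WT libraries, and 355 ± 9.90 and 361 ± 2.99 in the TAZKo libraries (SD, n = 3). It was therefore higher in TAZKo normoxia by 0.69 (adjusted p = 1.39e-05) and lower in TAZKo hypoxia, with a log2 difference of -0.39 (adjusted p = 0.00123). Among NRF2 targets the difference of responses was log2 -0.46 (adjusted p = 0.0447) for Hmox1, -0.52 (adjusted p = 0.00646) for Idh1, which makes cytosolic NADPH, and -0.98 (adjusted p = 0.00207) for Aldh3a1. Idh1 had means of 75.3 ± 3.29 CPM in normoxia and 196 ± 10.3 in hypoxia in the WT libraries, and 64.6 ± 2.36 and 117 ± 5.47 in the TAZKo libraries (SD, n = 3), rising with hypoxia by log2 1.38 (adjusted p = 9.83e-10) in WT and 0.86 (adjusted p = 1.79e-07) in TAZKo. Of the others, the difference was log2 -0.55 (adjusted p = 0.0113) for Fyn, -1.14 (adjusted p = 0.0167) for Txnip and -1.12 (adjusted p = 0.00185) for Sesn2.

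The value for Hmox1 was lost when any 1 sample other than WT normoxia sample 1 and WT hypoxia sample 2 was left out (adjusted p up to 0.147), that for Slc7a11 without WT hypoxia sample 3 (adjusted p 0.0512), that for Fyn without TAZKo normoxia sample 2, WT hypoxia sample 3 or TAZKo hypoxia sample 2 (adjusted p up to 0.057) and that for Txnip without TAZKo normoxia sample 3 or TAZKo hypoxia sample 2 or 3 (adjusted p up to 0.0646).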

How the results depend on the processing

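No difference of a gene that passed changed its direction under any of 33 alternatives (32 for the difference of hypoxia responses, where using only the groups compared was not possible because all 12 samples are needed). Calls held under all alternatives for 10 of 17 genes between genotypes in normoxia, 9 of 12 in hypoxia, 19 of 26 for hypoxia in WT, 18 of 22 in TAZKo, and Cth in the difference of responses. The count for the difference of responses was 1, and 2 with the DESeq2 test, which added Gpx8. With the replicate number as a block it was also 2. In the 2 comparisons taken as paired, the block added Keap1 between genotypes in normoxia (18 against 17) and changed no other call of the antioxidant genes (26 for hypoxia in WT in both fits). In the other 2 comparisons not every sample correlated best with its own number either. There the count with the block was 19 against 12 between genotypes in hypoxia and 26 against 22 for hypoxia in TAZKo. Leaving out each sample gave 1 to 2 for the difference of responses, 9 to 19 between genotypes in hypoxia, 13 to 20 in normoxia, 22 to 25 for hypoxia in WT and 19 to 29 in TAZKo, and 1 to 2, 9 to 19, 13 to 19, 20 to 25 and 20 to 29 with the TMM factors kept. The highest counts of 2 and 19 came without WT normoxia sample 1, where 3.79% of all genes passed for the difference of responses and 41.9% between genotypes in hypoxia. The cause of these shifts was not tested. Genes with few counts, such as Gpx3 and Gpx7, limit what can be said of them, and log2 differences near 0.2 are close to the smallest that passed.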
